A study of Homo sapiens with 70 samples.

Results

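The genes described here are 51 DNA replication and S phase genes, chosen by name from the 44503 gene rows that each of the 3 count tables holds. The names were listed without a rule on measured values, though earlier results of these data were known. All 51 symbols matched a single gene row, 50 of them by symbol and UHRF1 by the position of its exons. They were placed in 8 groups by role. The 10 licensing genes were MCM2 to MCM7, CDC6, CDT1, ORC1 and ORC6, and the 8 genes of helicase activation were CDC45, GINS1 to GINS4, MCM10, CDC7 and DBF4. POLA1, POLA2, PRIM1, PRIM2, POLD1, POLD3, POLE and POLE2 encode polymerase and primase subunits, and PCNA with RFC2 to RFC5 the sliding clamp and its loader. FEN1, LIG1, RPA2, RPA3 and MCM8 act on DNA strands, and TYMS, RRM1, RRM2, TK1 and DUT supply nucleotides. UHRF1, DNMT1, SLBP, CHAF1A and CHAF1B serve the copying of chromatin. The last group held CCNE1, CCNE2, E2F1, E2F2 and E2F8, which encode cyclins and transcription factors of S phase entry.

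A cell copies its genome once per division. In G1 phase the origin recognition complex, CDC6 and CDT1 load the MCM helicase onto DNA, and at the start of S phase the kinase made of CDC7 and DBF4, together with cyclin-dependent kinases, switches it on by adding CDC45 and the GINS complex. E2F transcription factors, held back by the retinoblastoma protein in arrested cells, drive the transcription of many of these genes. Senescence is a lasting arrest of the cell cycle, and an overactive RAS oncogene is one of its triggers. HMGA1 is an abundant chromatin protein that takes part in the heterochromatin foci of senescent fibroblasts, C/EBPbeta (gene CEBPB) is a transcription factor of the inflammatory secretion of senescent cells, and p53 is a transcription factor that enforces the arrest.

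The study sequenced bulk poly(A) RNA of 70 samples in 3 experiments. IMR90 cells are normal human lung fibroblasts, and all IMR90 samples, controls included, carried the retroviral vector pLNCX2 ER:HRAS G12V, which makes an HRAS oncoprotein that works only once 4-hydroxytamoxifen (4OHT) is added. In the first experiment, 8 libraries each were made of Grow cells (no 4OHT, empty vector pMSCV miR v), Grow-shA1 cells (no 4OHT, pMSCV miR shHMGA1), OIS cells (100 nM 4OHT for 6 days, empty vector) and OIS-shA1 cells (the same 4OHT, pMSCV miR shHMGA1). OIS stands for oncogene-induced senescence. In the second, 5 libraries were made of each group. Grow-v-v cells (no 4OHT) and OIS-v-v cells (100 nM 4OHT for 6 days) both carried the empty vectors pSuper v and pMSCV miR v. The same 4OHT was given to OIS-shCEBPB (pSuper shCEBPB and empty pMSCV miR v), OIS-shp53 (pMSCV miR p53 and empty pSuper v) and OIS-shCEBPB-shp53 cells (both short hairpins). In the third, 7 libraries of H1299 cells, a non-small cell lung carcinoma line, with empty pMSCV miR v were set against 6 of H1299-shA1 cells with pMSCV miR shHMGA1. No treatment is given for either. Each knock-down used 1 short hairpin RNA per gene in transduced populations of a single cell line. Growing cells with the CEBPB or p53 hairpin were not analysed here.

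In the promoters of these genes, an E2F-type motif was much more frequent than in promoters at large, and parts of some windows are printed here. RefSeq promoter windows of GRCh38.p14, from 250 bases before to 50 after a gene's start, were held for 43 of the 51 genes. The windows of MCM4, MCM5, GINS4, POLD3, RPA2, RPA3, CCNE2 and E2F8 were not used here. An E2F-type match was any of 4 words on either strand, namely TTCCCGC, its variant TTGGCGC, its variant TTCGCGC and its variant TTGCCGC. Matches can overlap each other. Of the 43 genes, 34 (79.1%) held at least 1 match, against 15.3% of all 27305 genes and 20.5% of the 15843 protein-coding genes of the table. A CCAAT box, searched as CCAAT on both strands, was found in 22 (51.2%), against 39.7% and 42.1%. A match is only a match of letters and not a shown binding site. The 150 bases before the start are given for 6 genes, 5′ to 3′ on the gene's strand, with matches in capitals. These genes were chosen by their change in OIS against Grow. The 4 with a match had the largest falls among genes with a match within these bases. CCNE1 and SLBP had the highest log2 fold changes among genes without a match in the window.
E2F2, chr1:23531234-23531383, minus strand, match 41 bases before the start: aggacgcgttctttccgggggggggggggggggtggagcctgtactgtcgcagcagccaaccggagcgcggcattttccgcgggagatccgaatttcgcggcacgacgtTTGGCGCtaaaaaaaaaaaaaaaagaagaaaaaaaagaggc
TK1, chr17:78187053-78187202, minus strand, match 12 bases before the start: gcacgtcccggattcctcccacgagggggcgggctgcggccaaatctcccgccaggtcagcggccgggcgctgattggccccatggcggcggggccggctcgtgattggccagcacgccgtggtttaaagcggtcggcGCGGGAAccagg
MCM6, chr2:135876444-135876593, minus strand, matches 148, 89 and 86 bases before the start, of which the last pair overlap: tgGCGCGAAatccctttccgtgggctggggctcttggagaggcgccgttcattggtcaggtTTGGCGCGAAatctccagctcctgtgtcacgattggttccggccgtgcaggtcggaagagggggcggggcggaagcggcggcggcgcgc
RFC3, chr13:33817999-33818148, plus strand, match 55 bases before the start: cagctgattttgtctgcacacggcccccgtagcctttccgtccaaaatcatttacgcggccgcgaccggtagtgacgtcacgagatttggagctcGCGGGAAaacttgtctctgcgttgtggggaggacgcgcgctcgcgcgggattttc
CCNE1, chr19:29811841-29811990, plus strand, no match: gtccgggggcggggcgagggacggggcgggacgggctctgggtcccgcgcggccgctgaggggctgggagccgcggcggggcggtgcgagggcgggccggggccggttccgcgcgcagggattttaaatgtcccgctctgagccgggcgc
SLBP, chr4:1712320-1712469, minus strand, no match: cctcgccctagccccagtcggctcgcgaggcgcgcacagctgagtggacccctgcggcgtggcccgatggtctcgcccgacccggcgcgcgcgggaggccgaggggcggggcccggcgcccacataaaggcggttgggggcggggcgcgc
E2F2, TK1 and MCM6 had the largest falls of the 43 genes in senescent cells. RFC3 had the next largest among genes with a match in the printed bases. CCNE1 was the only gene to rise and SLBP had the smallest fall of the 43. Because the printed genes were picked by their changes, their contrast does not test a link between a match and a fall. Among the 34 genes with a match the median log2 fold change of OIS against Grow was -1.63 (range -3.85 to -0.45), and among the 9 without a match in the window it was -1.04 (range -2.23 to 0.63). CDC45 and MCM10 had no match and log2 fold changes of -2.17 and -2.23, so a match was not shared by all genes with large falls.

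Library totals ran from 13904974 to 24890797 counts, except OIS replicate 4 with 1903607. The hairpins against HMGA1 and CEBPB lowered their targets. The median HMGA1 level went from 469 to 35.8 CPM (counts scaled to a common library total) in Grow, from 745 to 59.7 in OIS and from 1915 to 366 in H1299 cells. CEBPB stood at 259 to 329 CPM in OIS-v-v and at 26.6 to 42.7 in the CEBPB knock-downs. Of the cell type markers, all 8 of fibroblasts exceeded a mean of 1 CPM in every IMR90 group, though their summed level was lower in senescent cells (5586 to 6888 CPM in OIS, 37343 to 46696 in Grow). Endothelial and leukocyte markers summed to at most 2.12 CPM in any IMR90 library. In H1299 the 5 epithelial markers summed to 814 to 1138 CPM, with 2 of them at a mean of 1 CPM or more. The 8 fibroblast markers summed to 1636 to 1761 CPM there, also with 2 at that level, and VIM alone had a mean of 1694 CPM. In the second experiment replicates 1 to 3 and replicates 4 and 5 lay apart on principal components 1 and 3 in all 5 conditions. The labels name no batch, but each set holds every condition, so results of that experiment are also given within each set.

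Entry into senescence lowered nearly the whole replication programme. In OIS against Grow, 50 of the 51 genes fell and CCNE1 rose (edgeR quasi-likelihood test, Benjamini-Hochberg adjusted p under 0.05), where 35.9% of all genes tested fell and 38.8% rose. The median log2 fold change of the 51 was -1.60, against 0.03 for all genes. For 47 genes every OIS library lay below every Grow library, as for 24.7% of all genes, and CCNE1 lay above in every library, as did 19% of all genes. Summed over the 51 genes, the level went from 2688 to 2844 CPM in Grow to 982 to 1096 CPM in OIS. In bulk RNA, fewer cells in S phase and less RNA per cell cannot be told apart. Without the shallow OIS replicate 4, again 50 fell and 1 rose (36.2% and 39.3% of all genes), with a median of -1.61.

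The licensing genes had a median log2 fold change of -1.60. MCM7, a helicase subunit, had 139 to 160 CPM in Grow (median 147) and 54.8 to 76.8 in OIS (median 56.6), a log2 fold change of -1.31 ± 0.05 (SE, adjusted p = 2.45e-19). MCM6 fell furthest of the 6 helicase subunits, from a median of 64.6 (60.3 to 73.6) to 9.59 CPM (8.9 to 15.7), a log2 fold change of -2.70 ± 0.07 (adjusted p = 2.05e-23). The groups were far apart for both. CDC6, a helicase loader, went from a median of 61.9 (57.8 to 65.2) to 20.9 CPM (18.4 to 22.9), with no overlap (log2 fold change -1.56 ± 0.05, adjusted p = 1.39e-21). The largest fall of a loader was that of CDT1, from 22.7 (18.6 to 24.6) to 4.62 CPM (1.43 to 5.84), a log2 fold change of -2.27 ± 0.11. ORC1, the largest origin recognition subunit, went from 16.9 (15.5 to 18.4) to 4.86 CPM (3.81 to 7.14), a log2 fold change of -1.64 ± 0.10.

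Genes of helicase activation fell by a median of 2.18 on the log2 scale. CDC45, which rides with the helicase, went from 23.4 (21.5 to 27.6) to 5.38 CPM (4.13 to 5.99), a log2 fold change of -2.17 ± 0.08 (adjusted p = 2.30e-19). GINS1, a subunit of the ring that joins helicase and polymerase, went from 32 (31.1 to 35.2) to 5.97 CPM (4.77 to 7.91), a log2 fold change of -2.32 ± 0.07. The activating kinase had smaller values, with log2 fold changes of -1.31 ± 0.11 for CDC7 and -0.86 ± 0.08 for its partner DBF4.

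Among the polymerases (median -1.25), the subunits differed widely. POLE2 of the leading-strand polymerase went from 11.5 (10 to 12.3) to 1.81 CPM (1.1 to 2.18), a log2 fold change of -2.57 ± 0.12 (adjusted p = 7.16e-18), whereas POLD1, the catalytic subunit of polymerase delta, which also serves DNA repair, had -0.48 ± 0.09 (adjusted p = 2.14e-05). PRIM1, which makes the RNA primers, went from 10.4 (8.52 to 12) to 3.1 CPM (2.38 to 4.21), a log2 fold change of -1.62 ± 0.10. PCNA, the sliding clamp, fell from 126 (118 to 138) to 67 CPM (62.5 to 75), a log2 fold change of -0.87 ± 0.05 (adjusted p = 5.38e-15). Its loader subunit RFC3 went from 29.4 (25.5 to 34.9) to 5.97 CPM (4.71 to 8.04), a fall of 2.31 ± 0.09, while RFC2 of the same loader had -0.49 ± 0.06. Subunits of 1 complex thus moved by unequal amounts. Among genes that process strands (median -1.31), the flap nuclease FEN1 went from 55.8 (53.7 to 58.3) to 19.7 CPM (17.9 to 21.1), a log2 fold change of -1.47 ± 0.05.

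Nucleotide supply (median -2.09) held some of the steepest falls. TK1, the thymidine kinase of S phase, went from 87.3 CPM (86.1 to 99.5) to 6.19 (4.63 to 7.42), a log2 fold change of -3.82 ± 0.07 (adjusted p = 4.96e-27), with all 8 OIS libraries more than 10-fold below the lowest Grow library. RRM2, the regulated subunit of ribonucleotide reductase, went from 355 (322 to 390) to 55.2 CPM (40.5 to 65.8), a log2 fold change of -2.68 ± 0.07 (adjusted p = 4.90e-23). TYMS, which makes thymidylate, went from 62.2 (58 to 68) to 15.3 CPM (11.1 to 18.1), a log2 fold change of -2.09 ± 0.07. Of its exon bases 26.2% overlap another gene, and the table was counted without strand, so fragments there were not assigned.

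The regulators of S phase entry went in both directions. E2F8, a repressive E2F made in S phase, went from 6.48 (5.76 to 7.3) to 0.197 CPM (0 to 0.577), a log2 fold change of -4.58 ± 0.23 (adjusted p = 1.30e-16) that depends on the prior count, since OIS libraries held 0 to 11 counts of E2F8 or E2F2. E2F2, an activator, went from 3.05 (2.53 to 4.45) to 0.205 CPM (0 to 0.435), a log2 fold change of -3.85 ± 0.26 (adjusted p = 7.16e-14). E2F1 went from 31.4 (27.5 to 34.7) to 7.56 CPM (6.2 to 9.41), a log2 fold change of -1.98 ± 0.08. CCNE1, the cyclin that drives entry into S phase, was the only one of the 51 to rise, from 12.7 (10.4 to 14.4) to 19.4 CPM (17.7 to 20.1), a log2 fold change of 0.63 ± 0.07 (adjusted p = 4.63e-09). Its paralogue CCNE2 fell from 10.2 (8.05 to 12.2) to 2.63 CPM (1.83 to 3.53), by 1.82 ± 0.13 on the log2 scale. The 2 cyclin E genes therefore separated the groups in opposite directions. RPA2, a subunit of the protein that coats single strands, and SLBP, which binds histone mRNA, passed the test with log2 fold changes of only -0.14 ± 0.06 (adjusted p = 0.0371) and -0.14 ± 0.05 (adjusted p = 0.0102), and both turned positive when library sizes alone were used. That scaling moved the median of all genes from 0.03 to 0.22. The remaining chromatin genes fell, from -0.45 ± 0.04 for the maintenance methyltransferase DNMT1 to -2.55 ± 0.10 for the histone chaperone subunit CHAF1B.

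**Figure D1:**
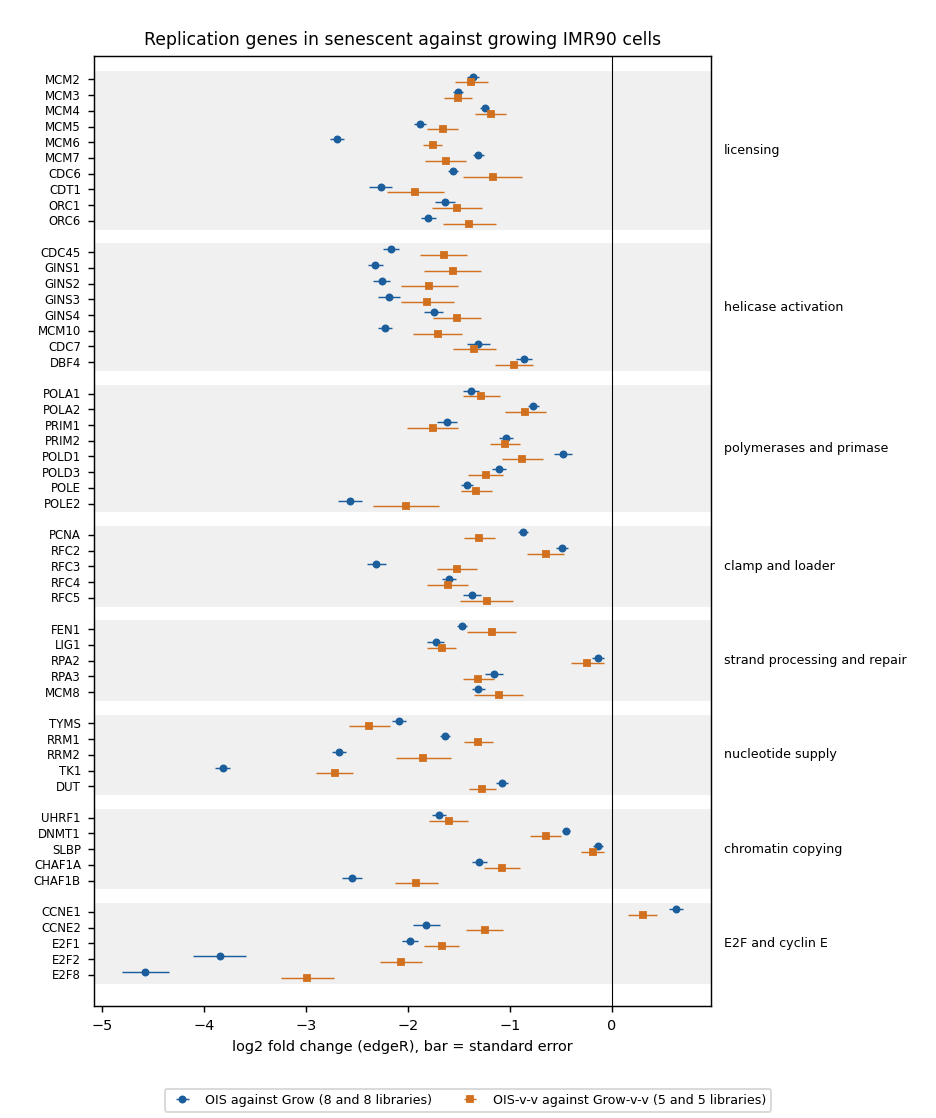
The horizontal axis gives the edgeR log2 fold change of each of the 51 genes, grouped by role, for OIS against Grow (circles, 8 and 8 libraries) and OIS-v-v against Grow-v-v (squares, 5 and 5 libraries), with bars of 1 standard error. All circles but that of CCNE1 (0.63) lie below 0, and E2F8, E2F2 and TK1 lie furthest to the left.

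Genes of the later cell cycle fell further. All 8 listed genes of G2 and M phase (MKI67, TOP2A, CCNB1, CDK1, PLK1, AURKB, BUB1 and CENPF) fell, with a median log2 fold change of -3.40, and their summed level went from 1444 to 1945 CPM in Grow to 113 to 187 CPM in OIS. Of 45 further replication pathway genes outside the 51 (median -0.57), 29 fell and 8 rose.

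The second experiment gave the same contrast with other control vectors. In OIS-v-v against Grow-v-v, 48 of the 51 genes fell and 0 rose (23.2% and 22.7% of all genes), with a median log2 fold change of -1.40 against 0.01 for all genes. DESeq2 gave 48 and 0, and 1 gene lay higher at an unadjusted p under 0.05. For 47 genes all 5 OIS-v-v libraries lay below all 5 Grow-v-v libraries, as for 18.3% of all genes. The genes that did not pass were RPA2 (-0.24 ± 0.16), SLBP (-0.19 ± 0.11) and CCNE1 (0.30 ± 0.14, adjusted p = 0.0944). CCNE1 had 12.4, 12.8, 15.2, 16.7 and 20.9 CPM in Grow-v-v replicates 1 to 5 and 20, 17.7, 19.7, 18.9 and 18.8 in OIS-v-v, so its groups overlapped through Grow-v-v replicate 5. TK1 had 110, 101, 113, 158 and 178 CPM in Grow-v-v and 19.8, 15.9, 19.3, 19.9 and 24.4 in OIS-v-v, a log2 fold change of -2.72 ± 0.18 (adjusted p = 1.83e-07). TYMS had 118, 97.1, 101, 180 and 178 CPM in Grow-v-v and 22, 22.9, 23.6, 31.4 and 28.5 in OIS-v-v, a log2 fold change of -2.38 ± 0.20. Replicates 4 and 5 of both conditions stood above replicates 1 to 3 for both genes. Within replicates 1 to 3, 48 genes fell and CCNE1 rose (33.8% and 33% of all genes), and within replicates 4 and 5, 50 fell and 0 rose (20.3% and 20.2%). The size of the change differed between the sets for 11 genes, 5 with the higher and 6 with the lower log2 fold change in replicates 1 to 3 (13.2% and 14.4% of all genes).

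In growing cells, loss of HMGA1 was accompanied by slightly higher replication gene levels. In Grow-shA1 against Grow, 29 of the 51 genes rose and DBF4 fell, where 14.8% of all genes rose and 15.1% fell, and the median log2 fold change was 0.18 against 0.01 for all genes. The rises were small, and 2 of them reached 1.5-fold, as did 2.61% of all genes. The largest was that of the primase gene PRIM1, from a median of 10.4 (8.52 to 12) to 16.8 CPM (11.1 to 19), a log2 fold change of 0.63 ± 0.10 (adjusted p = 1.21e-05), and the groups overlapped. E2F2 went from 3.05 to 5.26 CPM (3.16 to 5.96), a log2 fold change of 0.61 ± 0.15 (adjusted p = 0.0026). E2F1 went from a range of 27.5 to 34.7 to one of 35.9 to 44.4 CPM, with all 8 knock-down libraries above all controls (log2 fold change 0.38 ± 0.06, adjusted p = 1.00e-05). ORC1, POLA2, RFC2, DNMT1 and CHAF1A were separated in the same way, which makes 6 genes of 51, against 3.44% of all genes. By role, the rises were 8 of 10 licensing genes, 2 of 8 genes of helicase activation (CDC45, 0.35 ± 0.06, and MCM10, 0.34 ± 0.06), 5 of 8 polymerase genes, 2 of 5 clamp genes, 1 of 5 strand processing genes, 4 of 5 nucleotide genes, 3 of 5 chromatin genes and 4 of 5 E2F and cyclin E genes. Differences between roles were not tested. DBF4 went from 25.6 (24.3 to 31.2) to 23.3 CPM (19.6 to 26.4), a log2 fold change of -0.21 ± 0.07 (adjusted p = 0.0204). TK1 (0.03 ± 0.04), RFC3 (0.04 ± 0.07), E2F8 (0.04 ± 0.10) and PCNA (0.10 ± 0.05) did not pass the test. Of the 8 G2 and M genes 1 fell and 0 rose, with 1 higher at an unadjusted p under 0.05 in edgeR and 0 higher in DESeq2. The fibroblast markers summed to 27927 to 33485 CPM in Grow-shA1 against 37343 to 46696 in Grow, and the epithelial ones to 46 to 70.8 against 71.5 to 94.4, both without overlap, and their part in these results was not tested.

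In senescent cells the knock-down left replication genes low. In OIS-shA1 against OIS, 49 genes passed the filter on low counts, and E2F2 and E2F8 did not. Of these, 10 fell and DUT rose (17.1% and 18.8% of all genes), with a median log2 fold change of -0.08 against -0.00 for all genes. The share of falls was thus not far above that of all genes, and the share of rises was far below it. PCNA went from 67 (62.5 to 75) to 54.2 CPM (47.4 to 58.8), a log2 fold change of -0.32 ± 0.05 (adjusted p = 1.08e-05). MCM7 went from 56.6 (54.8 to 76.8) to 46.5 CPM (42.8 to 52.9), a log2 fold change of -0.31 ± 0.06 (adjusted p = 1.54e-04). For both and for POLA2 (29.5 to 25.8 CPM in the median) all knock-down libraries lay below all controls, as did 3.92% of all genes. POLA1, the catalytic subunit of the polymerase that starts each fragment, had a log2 fold change of -0.43 ± 0.10 (adjusted p = 0.00179) and TYMS one of -0.36 ± 0.09 (adjusted p = 0.00196), both with overlapping ranges. The other falls were those of E2F1 (-0.30), MCM4 (-0.23), RFC2 (-0.20), CHAF1A (-0.19) and RRM1 (-0.16). DUT, which removes dUTP, went from 20.3 (18.2 to 26.7) to 24.4 CPM (21.8 to 26), a log2 fold change of 0.26 ± 0.06 (adjusted p = 0.00243). Without OIS replicate 4, 11 fell and 2 rose (18.8% and 19.6% of all genes). With library sizes alone, which moved the median of all genes from -0.00 to -0.09, 17 fell. The share of all genes that fell under that scaling is not given here. Of the 8 G2 and M genes 6 fell, with a median of -0.37.

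The response to HMGA1 loss differed between the growing and the senescent state. A term for this difference, fitted over all 32 libraries of the first experiment, was below 0 for 21 of the 51 genes and above 0 for 0 at the adjusted threshold (11.4% and 12.2% of all genes), with a median of -0.26 against -0.01 for all genes. At an unadjusted p under 0.05 the edgeR counts were 31 and 0, where 4822 of all 13903 genes had such a p. DESeq2 gave 22 and 0 at the adjusted threshold, where 1715 of all genes lay below 0 and 1747 above. Where it is below 0, the change in OIS was the lower of the 2. The largest differences were those of PRIM1 (-0.84 ± 0.17, adjusted p = 2.56e-04), E2F1 (-0.68 ± 0.12, adjusted p = 5.50e-05) and POLA1 (-0.60 ± 0.12, adjusted p = 1.48e-04). MCM7 rose by 0.25 ± 0.05 in Grow and fell by 0.31 ± 0.06 in OIS on the log2 scale, a difference of -0.55 ± 0.07 (adjusted p = 3.55e-07). TYMS rose by 0.18 ± 0.04 and fell by 0.36 ± 0.09, a difference of -0.54 ± 0.09 (adjusted p = 2.52e-05). E2F1, MCM4, RFC2, POLA1, POLA2, CHAF1A and RRM1 likewise rose in Grow-shA1 and fell in OIS-shA1. With library sizes alone, which moved the median of all genes to -0.13, 33 of the 51 lay below 0. So did 3456 of all 13903 genes, and 888 lay above.

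In H1299 cells the same hairpin was accompanied by few changes. The 51 genes summed to 8398 to 8671 CPM in H1299, in a table normalised apart from those of the fibroblasts. In H1299-shA1 against H1299, 3 genes rose and 3 fell, shares near those of all genes (8.65% and 6.93%), with a median log2 fold change of 0.01. POLA2 went from 72.2 (66.6 to 75) to 81.7 CPM (77.8 to 86.7), a log2 fold change of 0.19 ± 0.04 (adjusted p = 0.00293), and RRM2 from 498 (at most 524) to 554 CPM (535 to 603), one of 0.18 ± 0.04 (adjusted p = 0.0029). Both were separated from the controls in every library, as were 2.65% of all genes. MCM8, a helicase of homologous recombination, had 0.17 ± 0.05 (adjusted p = 0.0328). MCM3 fell from 378 (361 to 388) to 329 CPM (320 to 344), a log2 fold change of -0.18 ± 0.03 (adjusted p = 9.12e-04), without overlap, as for 2.56% of all genes. CDC7 (-0.22 ± 0.05, adjusted p = 0.00834) and POLD3 (-0.14 ± 0.04, adjusted p = 0.0318) also fell. PRIM1 (0.01 ± 0.06) and E2F1 (0.00 ± 0.06), which rose in Grow-shA1, did not pass here. The difference between the cell types was not tested, since the lines were counted in separate tables. The epithelial markers summed to 630 to 716 CPM in H1299-shA1 against 814 to 1138 in H1299, and the fibroblast ones to 1899 to 2188 against 1636 to 1761. In both groups 2 of 5 epithelial and 2 of 8 fibroblast markers reached a mean of 1 CPM. VIM alone had a mean of 1986 CPM in H1299-shA1 and 1694 in H1299, so few genes make up these sums. Their part in these results was not tested. The log2 fold change of HMGA1 itself was -2.31 ± 0.05 in H1299 and -3.79 ± 0.07 in Grow.

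**Figure D2:**
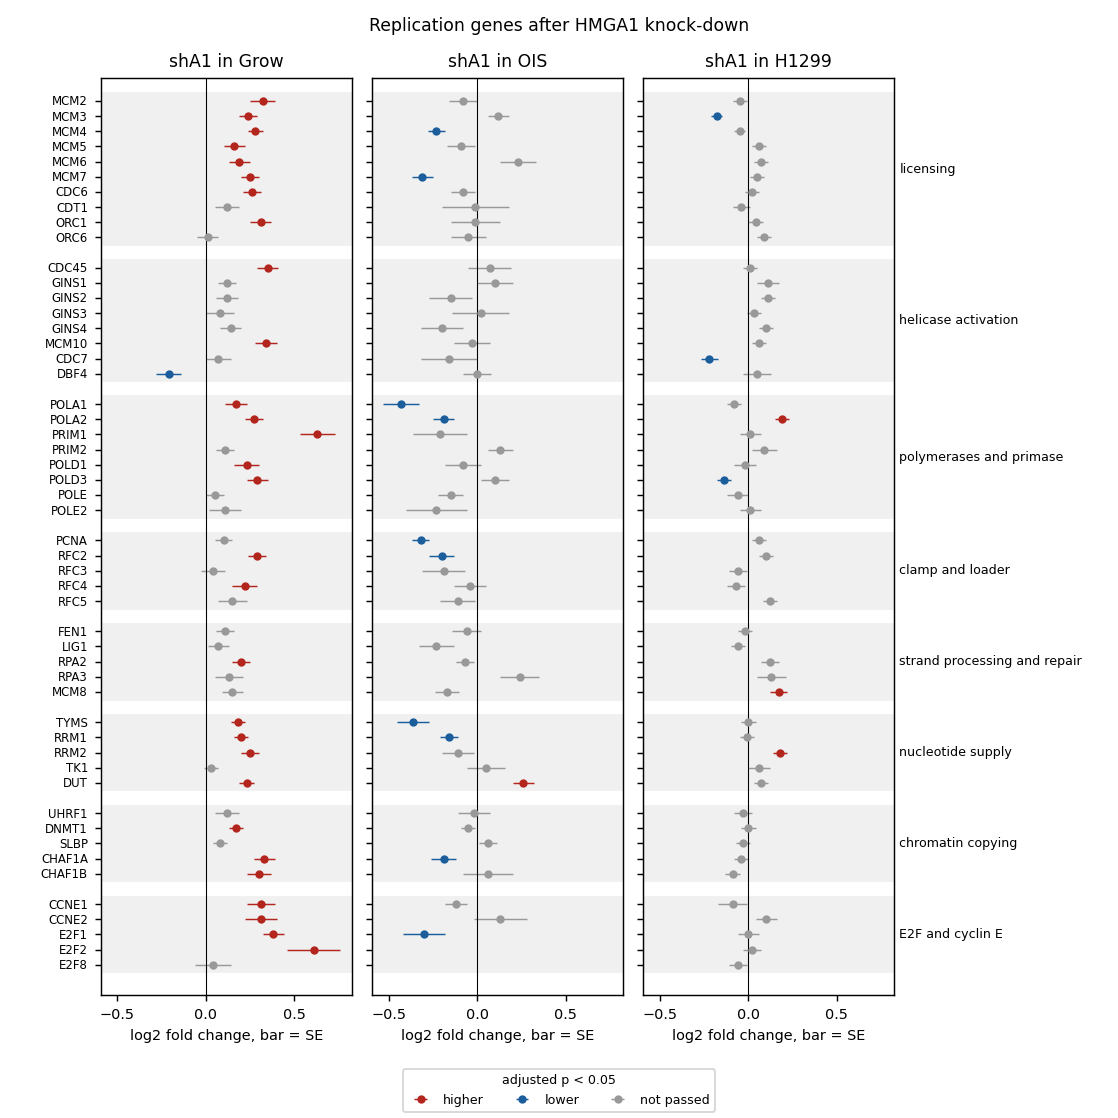
The panels give the log2 fold change of each of the 51 genes on the horizontal axis for the HMGA1 knock-down in Grow, OIS and H1299 cells, with bars of 1 standard error and colours for genes that passed an adjusted p of 0.05. In Grow 29 points are marked higher and 1 lower, in OIS 1 and 10, and in H1299 3 and 3.

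The remaining comparisons asked which replication genes came back when C/EBPbeta or p53 was reduced in senescent cells. All 3 knock-downs were set against the same 5 OIS-v-v libraries, so their values are not independent of each other. Over all 5 replicates, the CEBPB hairpin alone was accompanied by little change. TK1 rose and MCM6 fell, where 9.09% of all genes rose and 8% fell, and the median log2 fold change of the 51 was 0.05. TK1 had 19.8, 15.9, 19.3, 19.9 and 24.4 CPM in OIS-v-v and 27.2, 23.4, 29, 33.7 and 30 in OIS-shCEBPB, a log2 fold change of 0.52 ± 0.12 (adjusted p = 0.00817), with only replicate 2 of the knock-down below the highest control. MCM6 had 15, 15.2, 14.3, 15.2 and 16.2 CPM against 11.9, 11.4, 12.6, 13.2 and 13.3, a log2 fold change of -0.29 ± 0.07 (adjusted p = 0.0147), and was the 1 gene whose groups did not overlap (6.97% of all genes lay below in this way). With the replicate number as a block, 9 genes rose and 6 fell (16.9% and 15% of all genes).

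Within the sets of replicates the CEBPB knock-down had different profiles. In replicates 1 to 3, 13 genes rose and 3 fell (16.6% and 16% of all genes), and in replicates 4 and 5, 4 rose and 11 fell (13.2% and 11.3%). The log2 fold change was higher in replicates 1 to 3 for 7 genes and lower for 0 (2.5% and 3.62% of all genes). At an unadjusted p under 0.05 it was lower for 0 as well. PCNA rose in both sets, by 0.41 (adjusted p = 5.51e-05) and 0.33 (adjusted p = 0.00361) on the log2 scale. It had 41.2, 40.3, 39.6, 57.3 and 51.1 CPM in OIS-v-v and 54.2, 50.2, 57.2, 71.6 and 65.9 in OIS-shCEBPB, so each replicate stood above the control of its own number. TK1 (0.52 and 0.51) and TYMS (0.34 and 0.40) also had nearly equal values in the sets. RRM2 had 79.4, 77.7, 78.2, 145 and 146 CPM in OIS-v-v and 73.9, 70.3, 72.1, 105 and 101 in OIS-shCEBPB, with log2 fold changes of -0.13 in replicates 1 to 3 and -0.50 in replicates 4 and 5.

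For the p53 hairpin, the result depended on the set of replicates. Over all 5 replicates TK1 rose (0.50 ± 0.12, adjusted p = 0.0375) and 0 genes fell, where 2.47% of all genes rose and 1.97% fell. At an unadjusted p under 0.05, 10 lay higher and 2 lower in edgeR, where 2645 of all 13378 genes had such a p. DESeq2 called 2 and 1. The median log2 fold change of the edgeR fit was 0.19, and for RPA3 every library lay above every control, as for 3.92% of all genes. Over all replicates 42 of the 51 genes had a higher mean than in OIS-v-v, a share not counted for all genes. That count was 47 within replicates 1 to 3 and 16 within replicates 4 and 5. In replicates 1 to 3, 39 genes rose and 0 fell (17.6% and 16.5% of all genes), with a median of 0.42. In replicates 4 and 5, 0 rose and 8 fell (3.05% and 2.27%), with a median of -0.06 and 1 gene higher at an unadjusted p under 0.05. The log2 fold change was higher in replicates 1 to 3 for 35 genes and lower for 0 (3.76% and 2.62%), with a median difference of 0.57. At an unadjusted p under 0.05 it was lower for 0 as well. With the replicate number as a block, 17 genes rose and TYMS fell (12% and 10.7%).

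The levels by library are given for 3 genes and for the sum over the 51. CDC6 had 13.7, 13.8, 14.1, 36.3 and 32.9 CPM in OIS-v-v and 25.1, 29.7, 25.8, 30.8 and 31.1 in OIS-shp53, so the knock-down libraries were alike while the controls were not (log2 fold changes of 0.95 and -0.16 in the sets, difference 1.12, adjusted p = 1.28e-06). RRM2 was at 115, 117, 114, 117 and 123 CPM in OIS-shp53 against controls of about 78 CPM in replicates 1 to 3 (77.7 to 79.4) and 145 and 146 in replicates 4 and 5 (0.55 and -0.27, difference 0.83, adjusted p = 3.31e-08). MCM7 had 60.3, 59.3, 63.3, 94.2 and 93.5 CPM in OIS-v-v and 90.4, 90.1, 95.4, 95.2 and 93 in OIS-shp53 (0.59 and 0.00, difference 0.59, adjusted p = 1.35e-05). For these 3 genes the sets lay further apart in the senescent controls than in the knock-down. The sum over the 51 genes had the same form, at 1100, 1081, 1107, 1559 and 1617 CPM in OIS-v-v and 1394, 1441, 1470, 1488 and 1497 in OIS-shp53. In Grow-v-v it was 2886, 2662, 2775, 4084 and 4185 CPM, so the growing controls of replicates 4 and 5 stood higher too. Relative to Grow-v-v of the same set, the median gene stood at 34.9% (replicates 1 to 3) and 38.9% (replicates 4 and 5) in OIS-v-v. In OIS-shp53 it stood at 49.1% and 39.4%. Like levels in CPM across the knock-down libraries therefore do not show in which group the sets differed.

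PCNA and TYMS were among the 12 genes that did not pass under the p53 hairpin in replicates 1 to 3. PCNA had 40.8, 38.1, 39.6, 38.2 and 35.9 CPM in OIS-shp53, with log2 fold changes of -0.03 in replicates 1 to 3 and -0.55 in replicates 4 and 5. TYMS had 20.9, 19.7, 23.9, 16.6 and 17.1 CPM (-0.09 and -0.83). Both genes stood higher in OIS-shCEBPB than in OIS-shp53 in each of the 5 replicates, a difference that was not tested. The 8 genes that fell in replicates 4 and 5 were MCM6, POLE2, PCNA, LIG1, TYMS, RRM2, CCNE1 and CCNE2.

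CDKN1A, the cyclin-dependent kinase inhibitor p21 and a target of p53, had 2025, 2002, 1954, 1152 and 1227 CPM in OIS-v-v and 467, 451, 464, 326 and 319 in OIS-shp53. It was lower in replicates 4 and 5 of OIS-v-v than in replicates 1 to 3, where the summed replication genes were higher. Its part in the differences between the sets was not tested.

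**Figure D3:**
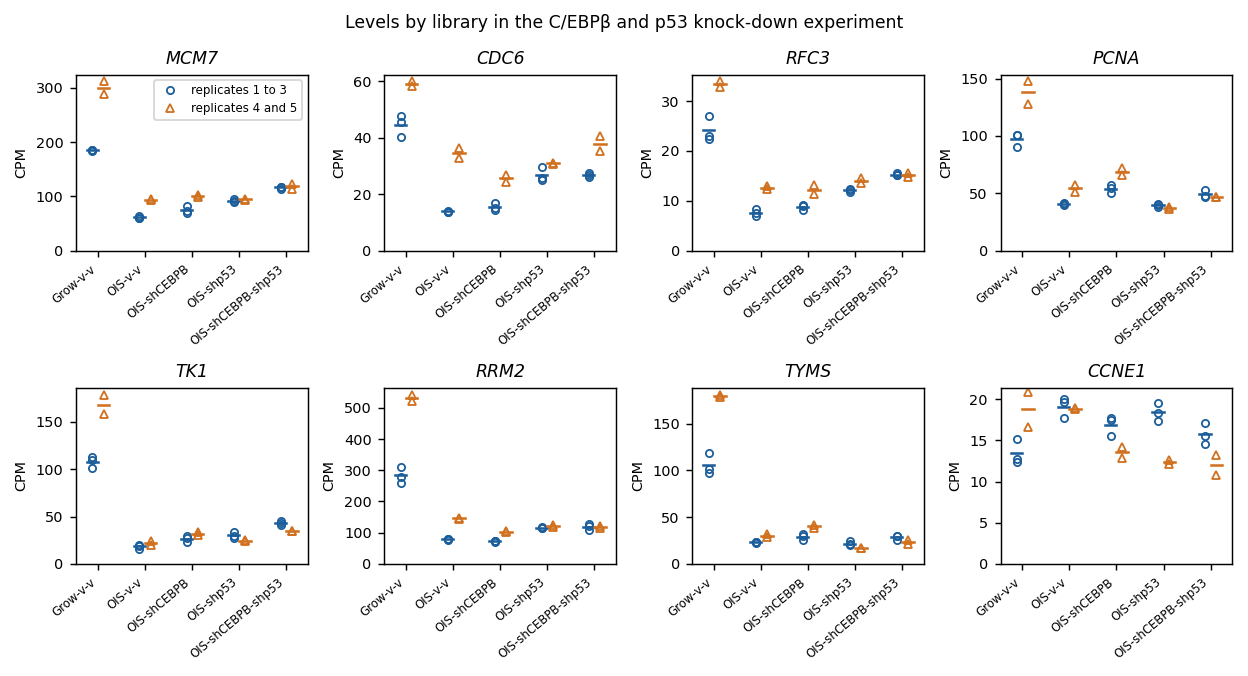
Each panel gives the level of 1 gene in CPM on a linear vertical axis for every library of the 5 groups of the second experiment, with circles for replicates 1 to 3, triangles for replicates 4 and 5 and bars for group means. In OIS-v-v the triangles of CDC6 (36.3 and 32.9) and RRM2 (145 and 146) stand well above the circles, while in OIS-shp53 the symbols lie together.

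Reducing both factors brought back the most genes. In OIS-shCEBPB-shp53 against OIS-v-v, 24 genes rose and 3 fell, where 17.1% of all genes rose and 16.5% fell, and the median log2 fold change was 0.45 against -0.01 for all genes. For 14 genes every library lay above every control, as for 13.3% of all genes, and for 3 below, as for 10.8%. TK1 had 41.4, 43.3, 45.6, 35.2 and 34.4 CPM against 15.9 to 24.4 in the controls, a log2 fold change of 1.0 ± 0.11 (adjusted p = 3.69e-05). GINS1 had 14.9, 16.7, 15.7, 17.4 and 17.5 CPM against 6.04, 6.2, 4.77, 13.8 and 13.7, one of 0.87 ± 0.26 (adjusted p = 0.0228). All knock-down libraries of both genes lay above all controls. ORC1 had 11.2, 10.3, 11.7, 15 and 13.9 CPM against 4.74, 5.73, 4.19, 8.92 and 10.5 (0.86 ± 0.23, adjusted p = 0.0126), with an overlap of 1 library. MCM7 had 114, 117, 118, 123 and 114 CPM, above the 94.2 of the highest control (0.65 ± 0.13, adjusted p = 0.00234), and RFC3 had 15.1, 15.5, 15.1, 15.5 and 14.7, above 12.9 (0.64 ± 0.16, adjusted p = 0.00812).

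By role, the genes that rose over all replicates were most frequent in licensing and helicase activation. Of the licensing genes 7 of 10 rose (median 0.56), of helicase activation 6 of 8 (0.55), of polymerases and primase 3 of 8 (0.43), of clamp and loader 2 of 5 (0.32), of strand processing 2 of 5 (0.52), of nucleotide supply 2 of 5 (0.17) and of chromatin copying 2 of 5 (0.30). Differences between roles were not tested. The ranking changed with the set of replicates. In replicates 1 to 3, 9 of 10 licensing genes and 8 of 8 of helicase activation rose. There clamp and loader and nucleotide supply each had 5 of 5. In replicates 4 and 5 the counts of these 4 roles were 6, 3, 0 and 1. The 3 genes that fell over all replicates were all of the E2F and cyclin E group (median -0.43). CCNE1 had 14.6, 15.5, 17.1, 13.2 and 10.8 CPM, below the 17.7 of the lowest control (-0.43 ± 0.11, adjusted p = 0.00871). CCNE2 had 2.65, 3.49, 3.97, 4.08 and 3.63 CPM against 4.52, 4.25, 4.36, 7.62 and 5.89 (-0.59 ± 0.18, adjusted p = 0.0262). E2F2 had 0.371, 0.483, 0.408, 0.53 and 0.477 CPM against 1.07, 0.709, 0.64, 1.03 and 1.14 (-1.02 ± 0.24, adjusted p = 0.00574). All 3 were without overlap, although 37.1% of the exon bases of CCNE2 overlap another gene. E2F1 (0.03 ± 0.09), MCM6 (-0.00 ± 0.10), TYMS (0.02 ± 0.12), PCNA (0.06 ± 0.10) and RRM2 (0.17 ± 0.18) did not pass.

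Both sets of replicates held rises under the double knock-down, though not to the same extent. In replicates 1 to 3, 44 genes rose and 2 fell (27.3% and 26.4% of all genes), with a median of 0.66, and in replicates 4 and 5, 15 rose and 4 fell (15.1% and 13.5%), with a median of 0.15. The log2 fold change was higher in replicates 1 to 3 for 34 genes and lower for 0 (7.32% and 7.3% of all genes), with a median difference of 0.50. At an unadjusted p under 0.05 it was lower for 0 as well. GINS1 had log2 fold changes of 1.47 and 0.33 in the sets and TK1 of 1.24 and 0.65, whereas RRM2 had 0.60 and -0.30 and TYMS 0.30 and -0.36. With 1 library left out in turn, 15 to 32 genes rose, the fewest without OIS-v-v replicate 1. With the replicate number as a block 30 genes rose and 3 fell (21.9% and 21.4%).

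**Figure D4:**
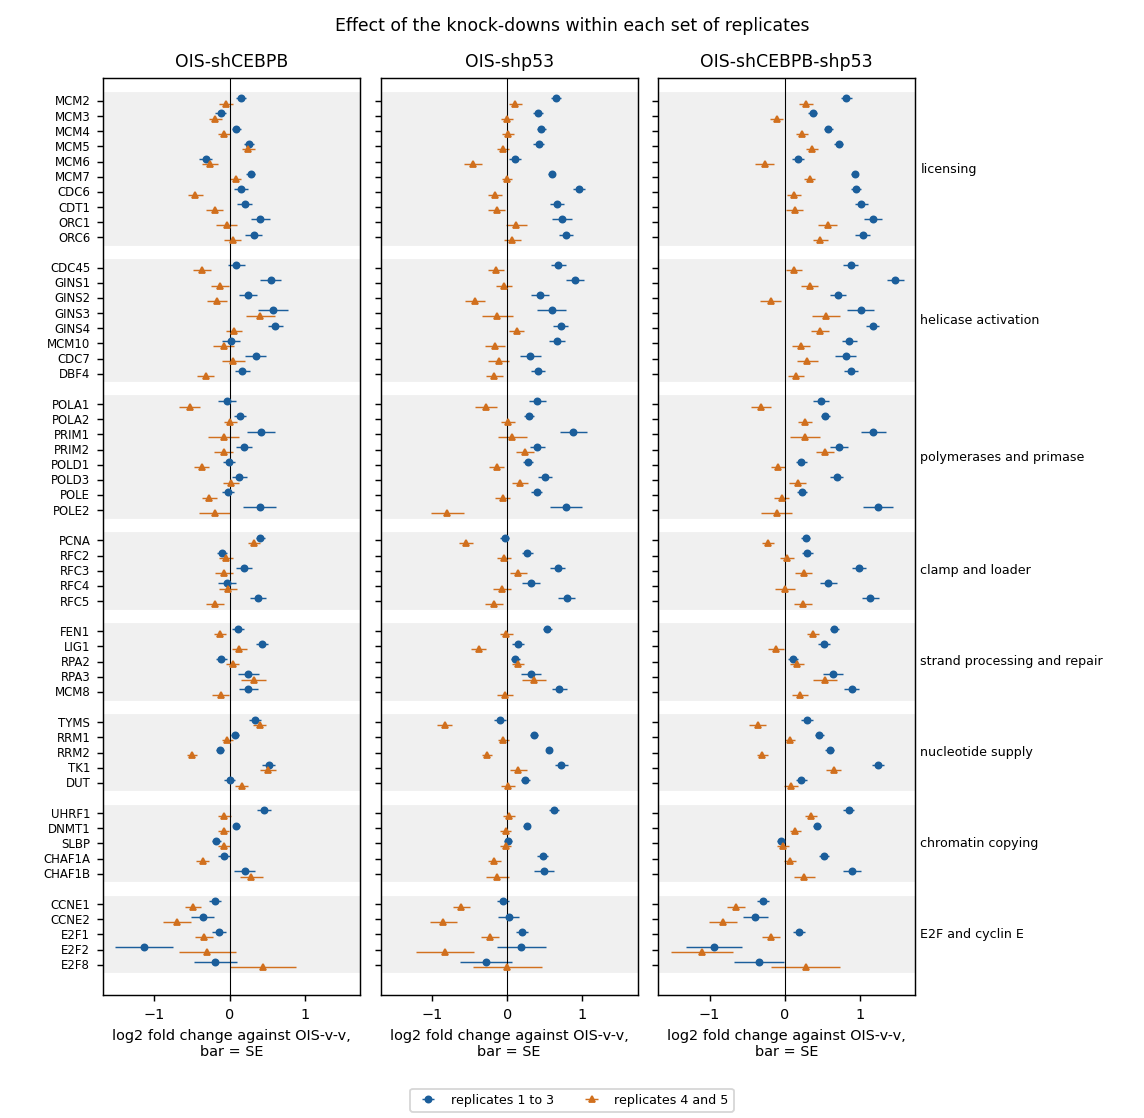
The panels give the log2 fold change of each of the 51 genes against OIS-v-v on the horizontal axis for the 3 knock-downs, fitted separately in replicates 1 to 3 (circles) and replicates 4 and 5 (triangles), with bars of 1 standard error. In OIS-shp53 most circles lie above 0 (median 0.42) and the triangles lie around it (median -0.06), and in OIS-shCEBPB-shp53 the medians are 0.66 and 0.15.

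No knock-down returned the replication genes to the level of growing cells. Against Grow-v-v, 49 genes were lower in OIS-shCEBPB, 48 in OIS-shp53 and 48 in OIS-shCEBPB-shp53 (24.2%, 26% and 25.8% of all genes), with medians of -1.37, -1.17 and -0.98, and 0 were higher (22.1%, 24.1% and 24%). With DESeq2 and at an unadjusted p under 0.05, 0 were higher in each as well. The groups did not overlap for 47, 47 and 40 genes (18.3%, 20.6% and 19.9% of all genes lay below in this way). As a share of the Grow-v-v mean, the median gene stood at 37.5% in OIS-v-v, 38.7% in OIS-shCEBPB, 44.1% in OIS-shp53 and 50.3% in OIS-shCEBPB-shp53. In replicates 1 to 3 these shares were 34.9%, 40.1%, 49.1% and 60.6%, and in replicates 4 and 5 they were 38.9%, 38.7%, 39.4% and 44.4%. The order of the 4 groups was the same in replicates 1 to 3 and over all libraries, and in replicates 4 and 5 the first 3 lay within 1 percentage point.

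Taking the fall from Grow-v-v to OIS-v-v as the whole, the median gene regained 2.11% of it in OIS-shCEBPB, 9.34% in OIS-shp53 and 21.5% in OIS-shCEBPB-shp53, shares that all use the same OIS-v-v and Grow-v-v means. The sets differed widely in this. The shares were 6.8%, 22.1% and 35.6% in replicates 1 to 3, and in replicates 4 and 5 they were -2.73%, -2.5% and 8.7%. All these medians cover only genes whose OIS-v-v mean lay below that of Grow-v-v. These were 50 over all libraries and in replicates 4 and 5, and 48 in replicates 1 to 3. CCNE1 was left out throughout, and RPA2 and SLBP in replicates 1 to 3, so the sets are not compared over the same genes. With both hairpins and over all libraries the largest shares were those of RPA2 (53%), whose fall was small and had not passed the test, PRIM2 (51.4%), DBF4 (48.1%), RFC5 (44.7%), ORC1 (43.4%) and GINS1 (42.7%). By role the median regained share over all libraries was 34.9% for strand processing, 30.1% for helicase activation, 26.9% for licensing, 23.6% for clamp and loader, 21.3% for chromatin copying, 21.1% for polymerases, 8.88% for nucleotide supply and -8.2% for the E2F and cyclin E group. The order and size changed with the set. Within replicates 1 to 3 and replicates 4 and 5, respectively, they were 47.3% and 23.4% for strand processing, 43.7% and 16.7% for helicase activation, 40.2% and 13% for licensing, 46.1% and 3.29% for clamp and loader, 35.3% and 6.29% for chromatin copying, and 37.5% and 4.34% for polymerases. They were 19.8% and 3.55% for nucleotide supply and -8.8% and -10.6% for the E2F and cyclin E group. RPA2 (92.4%), CCNE1 (91.4%) and SLBP (84.7%) were the genes that stood at 80% or more of Grow-v-v with both hairpins, and the same 3 already did so in OIS-v-v (83.8%, 122% and 87%). The lowest were E2F2 and E2F8 (both 11.6%) and TYMS (19.6%).

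**Figure D5:**
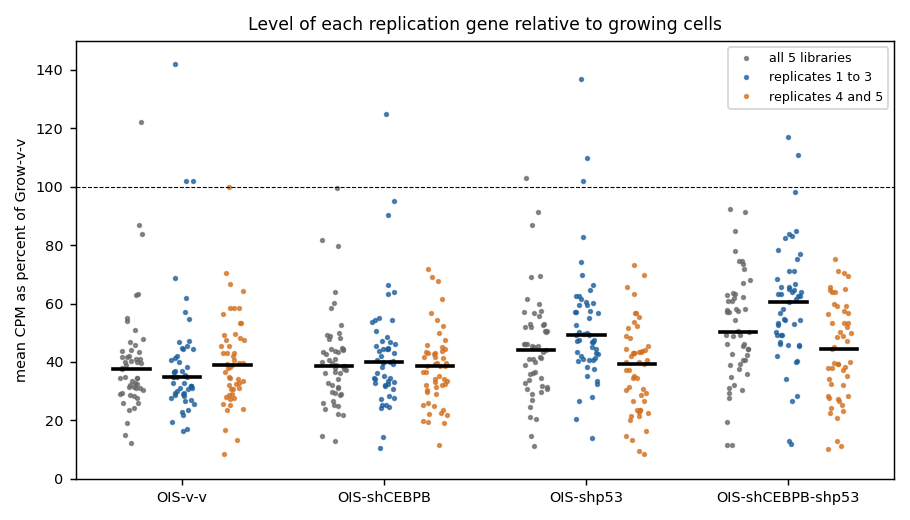
The vertical axis gives the mean level of each of the 51 genes as a percentage of its Grow-v-v mean in the 4 senescent groups, over all libraries and within each set of replicates, with dots for genes, black bars for medians and a dashed line at 100%. The median bar rises from 37.5% in OIS-v-v to 50.3% in OIS-shCEBPB-shp53 and stays far below the line.

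Whether the hairpins together did more than their sum was tested with an interaction term over the 4 senescent groups. Over all replicates, 0 of the 51 genes passed the adjusted threshold in either direction (0.0216% of all genes in each), the smallest adjusted p being 0.972 for DBF4, and the median term was 0.15. At an unadjusted p under 0.05, 2 lay above 0 and 0 below with edgeR and with DESeq2. Over all genes 682 had an unadjusted p under 0.05, 3 passed upward and 3 downward with edgeR, and 10 and 20 passed with DESeq2. With the replicate number as a block, 0 of the 51 passed again. At an unadjusted p under 0.05, 8 lay above 0, and 1657 of all 13873 genes had such a p. The sets differed here too. With edgeR 0 passed in replicates 1 to 3, with 3 above 0 at an unadjusted p under 0.05 and a median of 0.04. In replicates 4 and 5, 6 lay above 0 and 0 below at the adjusted threshold (0.825% and 1.3% of all genes), with a median of 0.29. At an unadjusted p under 0.05, 0 genes lay below 0 as well. The 6 genes were CDC6 (0.74 ± 0.12, adjusted p = 0.00106), CDC45 (0.65), DBF4 (0.64), CHAF1A (0.60), FEN1 (0.51) and RRM2 (0.48). The difference between the sets in this term was not tested. A term that misses the threshold does not show that the effects simply add up.

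Genes of G2 and M phase moved in the same direction under the double knock-down. All 8 rose (median log2 fold change 1.10), and their summed level was 552 to 605 CPM, against 205 to 402 in OIS-v-v and 1127 to 2071 in Grow-v-v. Under either single hairpin 0 of the 8 passed over all replicates with edgeR (2 and 4 at an unadjusted p under 0.05, and 1 and 0 passed with DESeq2), with medians of 0.43 for CEBPB and 0.44 for p53, and with the block 8 and 6 rose. Within replicates 1 to 3, 8 rose with either hairpin, and within replicates 4 and 5, 5 rose with the CEBPB hairpin and 0 with the p53 hairpin (0 also at an unadjusted p under 0.05). The part of these changes that follows from a different number of dividing cells was not tested.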

How the data were processed

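Poly(A) RNA-seq counts of 70 samples were analysed. The authors aligned reads to hg19 with STAR and deposited raw counts per GENCODE19 gene, made with featureCounts from the Subread package, per the methods and the submitters' processing notes. Per the file headers, the tables of the HMGA1 and H1299 experiments were counted without strand. The strand setting of the CEBPB and p53 table is not given in the sources used here. Libraries came from either of a pair of stranded kits and instruments, with no assignment per library. The labels give 6 biological replicates per condition, whereas the tables hold 5 to 8. The p-values measure the spread between these replicates of single cell lines. In the second experiment that spread includes the difference between the sets of replicates, unless the set or the replicate number was a term. Fits within a set rest on few libraries per group, and tests between the sets on a single pair of sets.

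The members and lists were chosen with earlier results of these data known. Only the groups being compared entered a fit, which used edgeR 4.0.16 (R 4.3.3) with TMM factors and quasi-likelihood F tests after filterByExpr (minimum count 10). Benjamini-Hochberg adjustment covered every gene tested, and an adjusted p of 0.05 was the threshold. For CPM, TMM factors came from the whole table. Named genes were a fixed set of 22 across the roles, the 3 largest rises and falls of each comparison, and genes whose call went against the majority. Further genes were named after their values were seen. Alternatives were DESeq2 1.42.0, library sizes alone, upper-quartile factors, no filter beyond 1 count, all groups in 1 fit, the replicate block, a 1.5-fold minimum and each library left out. The sets of replicates 1 to 3 and 4 and 5 were chosen after seeing the data. Fits were tested on simulated data. The level of the gene targeted in OIS-shp53 is not reported here.

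Deviations of same-numbered libraries from their group means correlated by over 0.1 in every pair for OIS-v-v against Grow-v-v (0.13 to 0.29). They did so for the 3 knock-downs against OIS-v-v (0.27 to 0.55) and for OIS-shCEBPB-shp53 against Grow-v-v (0.13 to 0.23). Differently numbered libraries of a set were not compared. Since the sets lay apart in each condition, the correlation cannot tell pairing by number from a shared set. The numbers were treated as a possible pairing there, on the data and not on a label. They were not in the first experiment (-0.13 to 0.17), in H1299 (-0.14 to 0.28) or for OIS-shCEBPB (0.085 to 0.25) and OIS-shp53 (0.095 to 0.21) against Grow-v-v. No libraries were duplicates: the lowest chi-square per gene between replicates was 1.68.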

Additional observations from a re-analysis of the deposited data

Results flagged for a closer look

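In 12 of 286 tested sets of 4 to 10 libraries (4.2%) the highest or lowest library stood apart by Dixon's 95% limit, which chance exceeds in about 1 of 20. Among the replication genes, POLA1 was at 22.9 CPM in Grow-shA1 replicate 8 (others 28.4 to 31.9), TYMS at 60.3 in Grow-shA1 replicate 5 (71.6 to 74.9), MCM5 at 78.2 in Grow replicate 8 (66 to 71.4) and MCM7 at 76.8 in the shallow OIS replicate 4 (54.8 to 61.9). PCNA was at 52.8 CPM in OIS-shCEBPB-shp53 replicate 3 (46.6 to 48), MCM7 at 1139 in H1299-shA1 replicate 3 (997 to 1050) and GINS2 at 74 in H1299-shA1 replicate 6 (80 to 83.5). HMGA1 was at 449 CPM in H1299-shA1 replicate 3 (357 to 381), and CEBPB at 41.9 in H1299 replicate 1 (33.5 to 36.2).

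CDKN1A stood apart in 3 libraries, at 797 CPM in Grow-shA1 replicate 8 (others 618 to 689), 1085 in OIS replicate 4 (1253 to 1384) and 127 in H1299 replicate 1 (80 to 96.8).

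The effect of shA1 differed between OIS and Grow by the edgeR interaction term, adjusted over all genes, for 21 of the 51 genes (those below 0 made up 11.4% of all genes), 17 of which are given here. The log2 difference was -0.84 for PRIM1 (adjusted p = 2.56e-04), -0.68 for E2F1 (adjusted p = 5.50e-05), -0.60 for POLA1 (adjusted p = 1.48e-04), -0.55 for MCM7 (adjusted p = 3.55e-07) and -0.54 for TYMS (adjusted p = 2.52e-05). It was -0.43 for CCNE1 (adjusted p = 5.53e-04), -0.43 for PCNA (adjusted p = 1.18e-05), -0.40 for MCM2 (adjusted p = 0.00423), -0.36 for RRM2 (adjusted p = 0.00815), -0.34 for CDC6 (adjusted p = 0.00239), -0.27 for RPA2 (adjusted p = 0.00501) and -0.25 for MCM5 (adjusted p = 0.048). For CHAF1A (-0.53), MCM4 (-0.51), RFC2 (-0.49), POLA2 (-0.46) and RRM1 (-0.36) the adjusted p ran from 4.66e-08 to 1.67e-04.

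Effects also differed between replicates 1 to 3 and replicates 4 and 5 of the second experiment. Against Grow-v-v this held for 11 genes in OIS-v-v, where 13.2% of all genes had the higher and 14.4% the lower value in replicates 1 to 3. It held for 8 in OIS-shCEBPB (10.1% and 11.7% of all genes), 32 in OIS-shp53 (13% and 13.4%) and 31 in OIS-shCEBPB-shp53 (9.67% and 9.04%). Against OIS-v-v it held for 7 (2.5% and 3.62% of all genes), 35 (3.76% and 2.62%) and 34 genes (7.32% and 7.3%) in the 3 knock-downs. In the comparisons with a hairpin the log2 fold change was the higher one in replicates 1 to 3 for each of these genes, and in OIS-v-v against Grow-v-v for 5 of the 11.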

How the results depend on the processing

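Of the summary counts, medians and levels recomputed under each alternative, 354 stayed within their limits and 68 did not. Of the values of single genes, 4604 kept direction and side of the threshold, 136 passed it anew, 101 no longer did and 9 turned sign. The cause of these changes was not tested. For OIS against Grow, library sizes alone gave 48 falls, with RPA2 at 0.05 and SLBP also above 0, and a minimum of 1.5-fold gave 45. The shares of all genes that fell under these 2 settings are not given here. The fit of all groups together is the same as the main one for H1299 and was not run.

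With a minimum of 1.5-fold, 2 genes rose and 0 fell in Grow-shA1, and 0 and 0 passed in OIS-shA1, OIS-shCEBPB and H1299-shA1. By the same rule 0 rose in OIS-shp53 and 15 in OIS-shCEBPB-shp53. For these comparisons the shares of all genes at that minimum are not given here, except for the rises in Grow-shA1 above. In the interaction of shA1 with OIS 3 lay below 0 at that minimum, as did 436 of all 13903 genes. Library sizes alone gave 33 values below 0 in that interaction, as for 3456 of all 13903 genes, and 17 falls in OIS-shA1. They also gave 2 rises and 0 falls in OIS-shCEBPB, and a median level of 53.7% of Grow-v-v in OIS-shCEBPB-shp53. DESeq2 gave 3 rises and 3 falls in OIS-shCEBPB and 2 and 1 in OIS-shp53. Without a filter beyond 1 count, 2 rose and 0 fell in OIS-shCEBPB. With all groups in 1 fit, 2 rose in OIS-shA1, 2 in OIS-shCEBPB and 0 in OIS-shp53.

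The replicate block gave 9 rises and 6 falls in OIS-shCEBPB and 17 and 1 in OIS-shp53, against 1 and 1 and 1 and 0 without it, and moved no other count of calls among the 51 genes by more than 1.5 times. It did so for the G2 and M genes and the 45 further replication genes, whose counts are given beside their results, except that 1 G2 and M gene rose in Grow-shA1 and 0 in H1299-shA1, against 0 and 1 without it. With the set of replicates as a term, 9 rose and 8 fell in OIS-shCEBPB (18.1% and 16% of all genes), 21 and 3 in OIS-shp53 (13.8% and 12.5%), and 1 rose in OIS-v-v against Grow-v-v (27.4%).

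With 1 library left out in turn, 1 to 4 genes rose in OIS-shCEBPB (4 without OIS-v-v replicate 4, 3 without OIS-shCEBPB replicate 2, 2 without OIS-v-v replicate 5) and 1 to 2 fell (2 without OIS-shCEBPB replicate 1 or 3). In OIS-shp53, 0 to 3 rose (0 without replicate 1, 2 or 3 of either group, 2 without OIS-v-v replicate 4, 3 without OIS-v-v replicate 5). In OIS-shCEBPB-shp53, 15 to 32 rose (15 without OIS-v-v replicate 1). In OIS-shA1 1 to 2 rose (2 without OIS replicate 4), and in OIS-v-v against Grow-v-v 0 to 1 (1 without Grow-v-v replicate 5).

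In replicates 1 to 3 alone, 13 rose and 3 fell in OIS-shCEBPB, 39 rose in OIS-shp53 and 44 in OIS-shCEBPB-shp53, and against Grow-v-v 1 rose in OIS-v-v, 1 in OIS-shCEBPB, 2 in OIS-shp53 and 1 in OIS-shCEBPB-shp53. There CCNE1 turned to 0.33 in OIS-shCEBPB and 0.23 in OIS-shCEBPB-shp53 and RPA2 to 0.15 in OIS-shp53. In replicates 4 and 5 alone, 4 rose and 11 fell in OIS-shCEBPB, 0 rose and 8 fell in OIS-shp53, 15 rose in OIS-shCEBPB-shp53, and 6 lay above 0 in the interaction of the hairpins. POLE2 turned to -0.80 and RRM2 to -0.27 in OIS-shp53, RRM2 to -0.30 and TYMS to -0.36 in OIS-shCEBPB-shp53, and CCNE1 to -0.60 in OIS-shp53 against Grow-v-v. The median level of Grow-v-v was 49.1% and 39.4% in the sets for OIS-shp53, and 60.6% and 44.4% for OIS-shCEBPB-shp53.

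The depth of OIS replicate 4 (1903607 counts) and the few counts of E2F2 and E2F8 in OIS cells limit what these libraries can show for low genes.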

Other observations

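A further list of 45 replication pathway genes, outside the 51 and tested in the same fits, gave these counts beside those of the members. In Grow-shA1 14 rose and 1 fell (median log2 fold change 0.12), in OIS-shA1 2 rose and 11 fell (-0.07), and the interaction of shA1 with OIS lay below 0 for 14 and above for 0 (0 also at an unadjusted p under 0.05 in edgeR and with DESeq2). In OIS-v-v against Grow-v-v 3 rose and 27 fell (-0.67). In OIS-shCEBPB 3 rose and 0 fell (0 lower also at an unadjusted p under 0.05 in edgeR and with DESeq2), in OIS-shp53 2 and 2, and in OIS-shCEBPB-shp53 17 and 3 (0.32). In H1299-shA1 1 rose and 4 fell. With the replicate number as a block, 11 rose and 2 fell in OIS-shCEBPB, 12 and 2 in OIS-shp53, 29 and 3 in OIS-shCEBPB-shp53, and 6 and 29 in OIS-v-v against Grow-v-v. The block also gave 14 and 3 in Grow-shA1, and 2 and 4 in H1299-shA1. In replicates 1 to 3 of OIS-shp53 29 of the 45 rose and 3 fell, and in replicates 4 and 5 1 rose and 2 fell. The difference between the lists was not tested.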
